A study of Homo sapiens with 12 samples.

Results

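Detroit cells collected as an invasion subline, on 2 arrays, were compared with Detroit parent cells, on another 2, which together are 4 of the 12 arrays of the series. The arrays were taken by their titles, and the comparison was set with earlier results of these data known. The series measured total RNA of 3 head and neck cancer lines, labelled Detroit, Fadu and OECM1, each as an invasion subline and as parent cells, with 2 arrays in each of the 6 groups. Invasion sublines were collected by a Matrigel invasion method meant to yield highly invasive cells, Matrigel being a basement membrane extract, and the parent cells are those of the same labelled line. RNA was taken up in Trizol and, after biotin labelling, read on Affymetrix arrays. The labels name no genotype, drug or number of selection rounds. They do not say which Detroit line was used, whether the subline is a clone, or whether the 2 arrays of a group came from separate cultures. P-values therefore measure the spread between these arrays only, which may be technical. The Fadu parent, 2 arrays of a squamous carcinoma line of the hypopharynx, is given beside each gene as a level for comparison.

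Squamous carcinoma cells keep parts of the programme of stratified epithelium. Basal keratinocytes make KRT5 and KRT14 and rest on the basement membrane, cells of the upper layers build the cornified envelope, and inflamed squamous epithelium makes the calcium-binding proteins S100A8 and S100A9. Movement through a basement membrane draws on secreted and membrane-bound proteases, among them the matrix metalloproteinases and the plasminogen activators, and on the actin cytoskeleton.

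All values are log2 expression values made by the authors with RMA, on which a difference of 1 is a 2-fold change. Values under 4.52, the 40th percentile of all values, are called dim, and RMA compresses such values, so fold changes of genes that are dim in a group are understated. Log2 fold changes are subline over parent, from a limma model of all 12 arrays, with the standard error (SE) and n = 2 arrays per group. A gene is said to have risen or fallen, or to be called, when its p-value adjusted by the Benjamini-Hochberg method over 8992 genes is under 0.05. Arrays 1 and 2 of a group are numbered as the labels number replicates, and parent array means Detroit parent array. The 2 subline arrays are said to agree on a gene when they differ by at most 1 and to differ on it otherwise. The number of arrays limits the precision. The model shares 1 estimate of the spread between all groups, and the Detroit subline duplicates differed most. SEs and adjusted p-values may therefore be too small for this comparison. Fits that leave out 1 array hold 1 array in that group, whose difference between duplicates then drops out of the spread. Calls and p-values of such fits show how far results depend on single arrays, and do not measure the spread in that group.

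The arrays labelled Detroit invasion subline held epithelial cells by their markers but did not sit nearest to their labelled parent. Of 12 markers listed for squamous epithelium 10 had a usable probe set, and KRT6A and TP63 could not be assessed. Of the 10, 9 were above the dim limit on both subline arrays and 9 on both Detroit parent arrays. The list includes EPCAM, CDH1 and the simple keratins KRT8 and KRT18, which do not mark squamous cells alone. The exception was S100A8 in the subline and KRT14 in the parent. The 10 fibroblast markers averaged 4.12 to 4.41 in the subline and 4.44 to 4.73 in the Detroit parent, the 9 endothelial markers 4.22 to 4.36 and 4.32 to 4.43, and the 13 leukocyte markers 4.45 to 4.63 and 4.69 to 4.81. Of 8992 genes, subline array 1 lay within 1 of the Detroit parent mean for 87.1% and within 1 of the Fadu parent mean for 95.7%. For subline array 2 these shares were 77.5% and 87.5%. A direct limma contrast of the subline with the Fadu parent called 0 genes (0%), and 351 had an unadjusted p under 0.05. The number called was 246 without subline array 1, and 2 without either Fadu parent array. Groups are named here as labelled, and the origin of the subline arrays was not settled from these data.

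Against the Detroit parent, 295 of 8992 genes were called in the subline, which is 3.28% of the genes tested. Of these, 136 rose (1.51%) and 159 fell (1.77%), and 1451 genes had an unadjusted p under 0.05. Counts of called list genes below are to be read against these shares of 1.51% and 1.77%. In all 295 called genes the groups did not overlap, which held for 3480 genes, 38.7% of those tested. Of these, 1790 (19.9%) were higher in the subline and 1690 (18.8%) lower. The subline arrays agreed on 245 of the called genes, which is 3.37% of the 7260 genes on which they agreed. They differed on the other 50, which is 2.89% of the 1732 genes on which they differed. Among agreeing genes, 108 rose with a median log2 fold change of 1.82 and 137 fell with a median of -2.29. Among differing genes, 28 rose with a median of 2.53 and 22 fell with a median of -2.61.

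Levels in the subline were near those of the Fadu parent for most called genes. The subline mean lay within 1 of the Fadu parent mean for 96 of the 108 agreeing genes that rose, 21 of the 28 differing genes that rose, 111 of the 137 agreeing genes that fell and 16 of the 22 differing genes that fell. That is 244 of 295 called genes, or 82.7%, against 95.7% of all genes tested. Nearly all of the remaining called genes lay past the Fadu level, with 10 and 7 of the rising groups above it and 26 and 6 of the falling groups below it. Only 2 called genes, both rising and agreeing, fell short of the Fadu level by over 1. Called genes just inside the limit of agreement were GOLGA5, NGRN and CDC7, whose subline arrays differed by 0.989, 0.983 and 0.973. Just outside were FEZ2, MMP10 and ACADM, at 1.00, 1.02 and 1.02.

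The number of calls depended on single arrays. Leaving out subline array 1 gave 918 and subline array 2 gave 209, while leaving out parent array 1 gave 128 and parent array 2 gave 191. Fitted to the 4 Detroit arrays alone, 47 genes were called. Of 92 called genes picked by the naming rule, 45 kept their call when each of the 4 Detroit arrays was left out in turn. With the 4 Detroit arrays alone 60 of the 92 lost it (adjusted p from 0.0610 to 0.314). Where leaving out a Detroit array ended the call of a gene described below, the adjusted p from that limma fit is given.

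**Figure D1:**
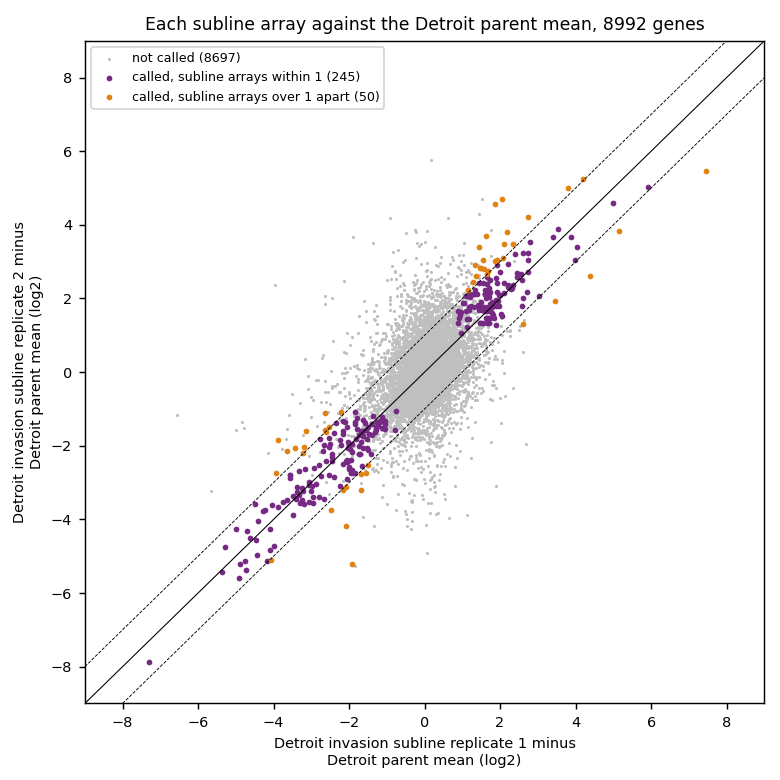
Each point is 1 of 8992 genes, placed by the difference of subline array 1 (horizontal) and of subline array 2 (vertical) from the Detroit parent mean, in log2 units. The solid line marks equal values and the dashed lines a difference of 1. Of the 295 called genes, 245 lie between the dashed lines and 50 outside them, and a cloud of uncalled genes extends below and above the lines where array 2 departs.

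Of the genes that rose on both subline arrays alike, the serine protease genes PRSS21 and KLK5 rose most. PRSS21, which encodes the membrane-anchored protease testisin, was at 10.10 and 9.21 in the subline arrays, against 3.99 and 4.36 in the Detroit parent and 8.54 and 7.75 in the Fadu parent (log2 fold change 5.48, SE 0.37, adjusted p = 3.57e-05). KLK5, a kallikrein peptidase that takes part in shedding of the outer epidermis, was at 9.36 and 8.97 in the subline, against 4.23 and 4.51 in the Detroit parent and 6.23 and 7.71 in the Fadu parent (log2 fold change 4.80, SE 0.40, adjusted p = 9.75e-05). KLK10, another kallikrein-related peptidase, was at 10.60 and 9.66 in the subline, against 7.26 and 5.97 in the Detroit parent and 8.90 and 9.12 in the Fadu parent (log2 fold change 3.52, SE 0.48, adjusted p = 0.00271). For these proteases both subline arrays were also above both Fadu parent arrays, and the Detroit parent was dim for PRSS21 and KLK5. Fitted to the 4 Detroit arrays alone, KLK10 was not called (adjusted p = 0.114), and a dim probe set of KLK10 gave a log2 fold change of 0.30.

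Several genes that were dim in the Detroit parent were well above it on both subline arrays. CALB2, which encodes the calcium-binding protein calretinin, was at 8.14 and 7.49 in the subline, against 4.08 and 4.12 in the Detroit parent and 5.43 and 5.53 in the Fadu parent (log2 fold change 3.72, SE 0.37, adjusted p = 0.00027). MAGEA4, a cancer-testis antigen normally made in germ cells, was at 7.55 and 7.90 in the subline, against 4.03 and 4.02 in the Detroit parent and 8.18 and 7.55 in the Fadu parent (log2 fold change 3.70, SE 0.35, adjusted p = 0.000177). SLC35G2, a member of a solute carrier family, was at 6.82 and 7.09 in the subline, 3.40 and 3.42 in the Detroit parent and 7.0 and 5.58 in the Fadu parent. DRC9, a part of the dynein regulatory complex of cilia, was at 6.66 and 7.17 in the subline, 4.06 and 3.80 in the Detroit parent and 7.43 and 7.37 in the Fadu parent. These last genes rose by 3.55 and 2.98 on the log2 scale. Of the 4, CALB2 stood above both Fadu parent arrays, and the other 3 overlapped or lay below the Fadu arrays.

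The rest of the 12 largest agreeing increases had a Detroit parent level above the dim limit. CRTC3, a coactivator of the transcription factor CREB, was at 8.31 and 8.93 in the subline, 5.58 and 5.82 in the Detroit parent and 7.98 and 7.53 in the Fadu parent. CELSR2, an atypical cadherin of planar cell polarity, was at 8.27 and 8.56 in the subline, 5.79 and 5.26 in the Detroit parent and 8.0 and 7.23 in the Fadu parent. These rose by 2.92 and 2.89 on the log2 scale, and neither was called with the 4 Detroit arrays alone (adjusted p = 0.0725 and 0.0669). IFI27, an interferon-induced gene, was at 9.64 and 9.44 in the subline, 5.98 and 5.53 in the Detroit parent and 12.08 and 9.20 in the Fadu parent. Its call ended without parent array 1 or 2 (adjusted p = 0.0810 and 0.102) and with array weights (adjusted p = 0.103). DUSP1, a phosphatase that switches off MAP kinases, was at 7.72 and 8.46 in the subline, 4.83 and 5.02 in the Detroit parent and 6.25 and 5.79 in the Fadu parent. CHSY1, a chondroitin sulphate synthase, was at 7.77 and 8.59 in the subline, 5.84 and 4.94 in the Detroit parent and 8.78 and 8.16 in the Fadu parent. IFI27, DUSP1 and CHSY1 rose by 3.78, 3.17 and 2.79 on the log2 scale. The DUSP1 call ended without subline array 2 (adjusted p = 0.0786), without either Detroit parent array (adjusted p = 0.114 and 0.0759) and with array weights (adjusted p = 0.104). The CHSY1 call ended without subline array 2 (adjusted p = 0.0699), without parent array 2 (adjusted p = 0.102) and with the 4 arrays alone (adjusted p = 0.114).

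**Figure D2:**
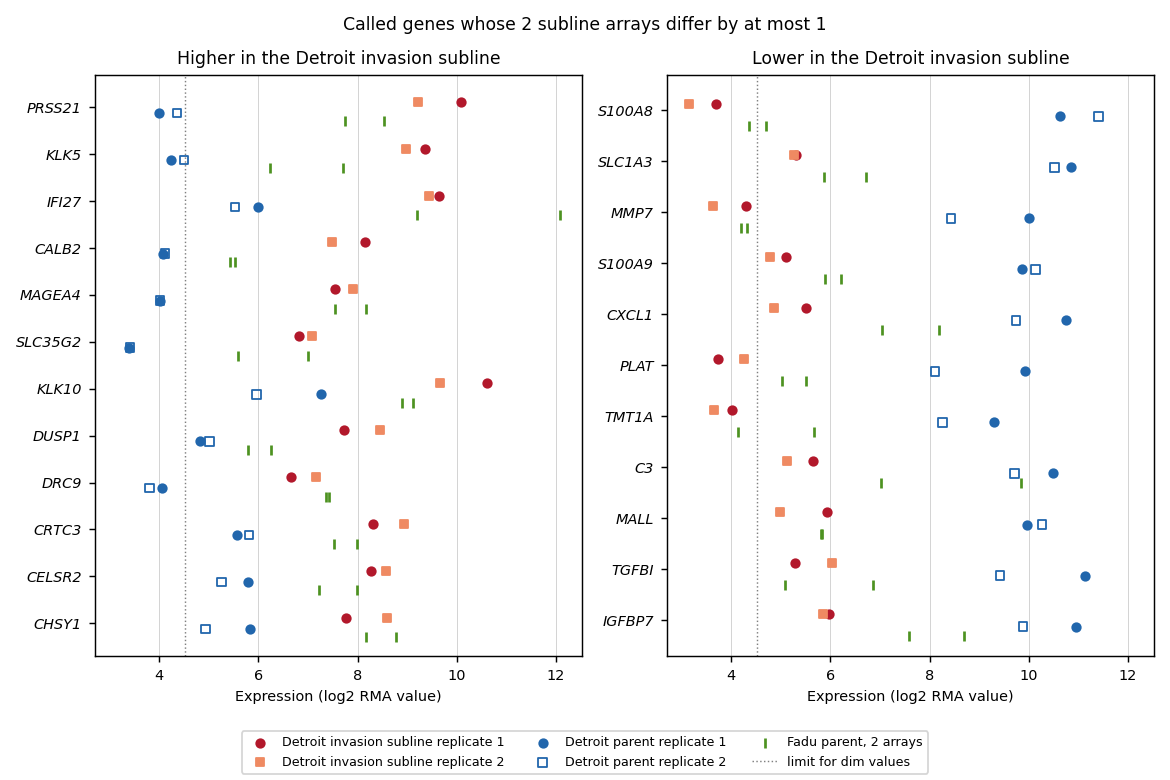
Log2 RMA values of the 12 agreeing genes that rose most (left) and of 11 of the 12 that fell most (right), with filled red and orange marks for the 2 subline arrays, blue marks for the 2 Detroit parent arrays and green ticks for the 2 Fadu parent arrays. The dotted line is the dim limit of 4.52. In every gene shown the subline arrays lie apart from the Detroit parent arrays, and in S100A8 the subline lies at 3.70 and 3.15 with the Fadu ticks at 4.37 and 4.71.

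Both calprotectin subunits were among the genes that fell furthest. S100A8 was at 3.70 and 3.15 in the subline, against 10.62 and 11.40 in the Detroit parent and 4.37 and 4.71 in the Fadu parent (log2 fold change -7.59, SE 0.31, adjusted p = 6.10e-07). S100A9, its partner, was at 5.10 and 4.77 in the subline, against 9.86 and 10.13 in the Detroit parent and 5.90 and 6.21 in the Fadu parent (log2 fold change -5.06, SE 0.25, adjusted p = 2.97e-06). Both subline arrays lay below both Fadu parent arrays as well. For S100A8 a dim probe set gave -0.83. S100A7, psoriasin, fell too, at 3.63 and 3.05 in the subline, 6.34 and 6.85 in the Detroit parent and 3.13 and 3.43 in the Fadu parent (log2 fold change -3.26, SE 0.27, adjusted p = 9.75e-05). Of 13 tested S100 genes, 3 fell, 0 rose and the median log2 fold change was -0.49. Over all genes tested 1.77% fell, 1.51% rose and the median was -0.01.

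Some matrix metalloproteinases and 1 plasminogen activator fell as well. MMP7, matrilysin, was at 4.30 and 3.63 in the subline, against 10 and 8.43 in the Detroit parent and 4.32 and 4.20 in the Fadu parent (log2 fold change -5.25, SE 0.42, adjusted p = 9.75e-05). PLAT, the tissue plasminogen activator, was at 3.73 and 4.26 in the subline, against 9.92 and 8.11 in the Detroit parent and 5.50 and 5.03 in the Fadu parent (log2 fold change -5.02, SE 0.50, adjusted p = 0.00027). MMP13, a collagenase, was at 3.89 and 4.02 in the subline, 7.52 and 7.02 in the Detroit parent and 5.69 and 6.99 in the Fadu parent (log2 fold change -3.31, adjusted p = 0.000764). The subline was dim for all 3 genes, and for MMP13 the Fadu parent stood between the groups. MMP10, a stromelysin, had subline arrays 1.02 apart, at 4.51 and 3.49, against 8.98 and 8.19 in the Detroit parent and 5.39 and 5.0 in the Fadu parent (log2 fold change -4.58, SE 0.38, adjusted p = 9.75e-05). ADAM9, a membrane metalloproteinase, was at 5.57 and 6.35 in the subline, 9.67 and 8.61 in the Detroit parent and 6.69 and 7.03 in the Fadu parent, and fell by 3.18 on the log2 scale. It was not called with the 4 Detroit arrays alone (adjusted p = 0.106). Of 17 tested metalloproteinases and inhibitors of them, 6 fell and 0 rose, with a median log2 fold change of -0.89. Among all genes tested 1.77% fell and 1.51% rose, with a median of -0.01. Of 6 plasminogen activation genes PLAT alone was called. The metalloproteinase median was -0.32 without parent array 1 and -1.38 without parent array 2. For the plasminogen list it was -0.42 with all arrays, and -0.02 and -1.22 in those fits.

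Other members of the 12 largest agreeing decreases were a transporter, a chemokine and membrane or secreted proteins. SLC1A3, a glutamate transporter, was at 5.31 and 5.26 in the subline, against 10.86 and 10.52 in the Detroit parent and 5.87 and 6.72 in the Fadu parent (log2 fold change -5.40, SE 0.45, adjusted p = 9.75e-05). CXCL1, a chemokine for neutrophils, was at 5.51 and 4.87 in the subline, 10.74 and 9.74 in the Detroit parent and 7.04 and 8.18 in the Fadu parent, and its call ended without parent array 1 (adjusted p = 0.0712). MALL, a protein of membrane rafts, was at 5.94 and 4.99 in the subline, 9.95 and 10.26 in the Detroit parent and 5.82 and 5.83 in the Fadu parent. CXCL1 and MALL fell by 5.05 and 4.64 on the log2 scale. TMT1A, a thiol methyltransferase, was at 4.02 and 3.66 in the subline, 9.29 and 8.26 in the Detroit parent and 5.67 and 4.13 in the Fadu parent. IGFBP7, a secreted protein that binds insulin-like growth factors, was at 5.96 and 5.86 in the subline, 10.95 and 9.88 in the Detroit parent and 8.70 and 7.59 in the Fadu parent. TMT1A and IGFBP7 fell by 4.94 and 4.51 on the log2 scale. Probe sets disagreed in part: dim ones gave -0.13 and -0.07 for TMT1A and -0.28 for IGFBP7, while a brighter one gave -5.68 for IGFBP7. C3, the central complement protein, was at 5.65 and 5.12 in the subline, 10.49 and 9.71 in the Detroit parent and 9.85 and 7.02 in the Fadu parent, and fell by 4.71 on the log2 scale. Its call ended without subline array 2 (adjusted p = 0.0568), without either Detroit parent array (adjusted p = 0.112 and 0.0516) and with array weights (adjusted p = 0.0581).

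Keratin 14 rose on both subline arrays, but by unequal amounts. KRT14 was at 11.52 and 9.52 in the subline, against 4.11 and 4.0 in the Detroit parent and 9.08 and 8.66 in the Fadu parent (log2 fold change 6.47, SE 0.62, adjusted p = 0.000203). Both subline arrays exceeded both Fadu parent arrays, and the Detroit parent was dim. KRT5, the partner keratin, was at 10.53 and 8.66 in the subline, 8.72 and 9.44 in the Detroit parent and 10.08 and 10.41 in the Fadu parent, and was not called (adjusted p = 0.829). KRT15 stood at 8.11 and 6.04 in the subline against 4.76 and 6.23 in the Detroit parent and 6.83 and 5.75 in the Fadu parent. KRT16 stood at 5.39 and 5.48 in the subline against 4.32 and 4.55 in the Detroit parent and 4.58 and 4.46 in the Fadu parent, and neither was called (adjusted p = 0.368 and 0.0645). KRT14 was thus the only called gene of the 4 tested basal and wound keratins. The simple keratins KRT8 and KRT18 were at 11.47 and 12.57 on subline array 1 and at 8.79 and 11.57 on array 2, against 9.21 and 11.43 on parent array 1 and 9.76 and 12.04 on parent array 2, and the Fadu parent was at 9.67 and 9.59 for KRT8 and at 11.83 and 11.56 for KRT18. Of 5 tested simple keratins 0 were called by limma, and 2 had an unadjusted p under 0.05.

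Scaffold, translation and cytoskeletal genes were among the other increases on which the subline arrays differed. SHANK2, a scaffold protein of synapses, was at 7.79 and 8.83 in the subline, against 3.70 and 3.49 in the Detroit parent and 5.98 and 6.72 in the Fadu parent (log2 fold change 4.71, SE 0.40, adjusted p = 0.000109). EEF1A2, an elongation factor mostly found in muscle and neurons, was at 9.97 and 8.67 in the subline, against 4.57 and 5.09 in the Detroit parent and 7.50 and 8.24 in the Fadu parent (log2 fold change 4.49, SE 0.48, adjusted p = 0.000497). In each of these genes both subline arrays were above the Fadu parent arrays. MSN, moesin, which links actin to the membrane, was at 7.93 and 6.16 in the subline, 3.55 and 3.53 in the Detroit parent and 7.32 and 7.75 in the Fadu parent. LMBRD1, a lysosomal membrane protein of vitamin B12 handling, was at 8.27 and 9.75 in the subline, 5.79 and 5.26 in the Detroit parent and 9.08 and 7.72 in the Fadu parent. MSN and LMBRD1 rose by 3.51 and 3.48 on the log2 scale. With the 4 Detroit arrays alone MSN and LMBRD1 were not called (adjusted p = 0.0941 and 0.106), and LMBRD1 also missed the threshold without subline array 2 or either Detroit parent array (adjusted p = 0.0629, 0.0611 and 0.0861). A further probe set of SHANK2 gave 4.02, while dim ones gave 0.03 and -0.17.

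Besides MMP10, the largest decreases on which the subline arrays differed lost their calls in some fits. CENPU, a centromere protein, was at 7.83 and 4.53 in the subline, 9.49 and 10.01 in the Detroit parent and 8.39 and 8.01 in the Fadu parent. CDC42EP3, an effector of CDC42, was at 4.05 and 5.24 in the subline, 9.02 and 6.97 in the Detroit parent and 4.84 and 5.19 in the Fadu parent. PCDH7, a protocadherin, was at 6.24 and 4.15 in the subline, 8.95 and 7.72 in the Detroit parent and 5.16 and 5.05 in the Fadu parent. Leaving out any array but subline array 1 ended the CENPU call (adjusted p from 0.0551 to 0.172), and leaving out any of 9 arrays ended that of PCDH7 (adjusted p from 0.0559 to 0.267). Further probe sets gave -3.88 and, uncalled, -2.42 for CDC42EP3, and -2.33, -0.88 and -0.57, all uncalled, for PCDH7. On these the subline arrays agreed, with gaps of 0.39 and -0.28 for CDC42EP3 and -0.48, -0.44 and -0.13 for PCDH7. The CDC42EP3 call ended without parent array 1 (adjusted p = 0.0849). PLAAT4, a phospholipid-modifying enzyme, was at 5.58 and 4.31 in the subline, 8.86 and 7.27 in the Detroit parent and 5.56 and 5.05 in the Fadu parent. CKAP4, a protein of the endoplasmic reticulum sheet, was at 5.23 and 6.76 in the subline, 9.28 and 8.50 in the Detroit parent and 7.0 on both Fadu parent arrays. Their calls ended without parent array 1 (adjusted p = 0.0606 and 0.132). A further CKAP4 probe set was called at -2.39, and on it the subline arrays agreed, with a gap of 0.10 against 1.52 here. None of these 5 genes was called with the 4 Detroit arrays alone (adjusted p from 0.172 to 0.289).

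Genes of squamous differentiation and cell contacts moved in both directions. Of 9 tested kallikreins, KLK5 and KLK10 rose and 0 fell, with a median log2 fold change of 0.32, and KLK6 was at 6.75 and 8.84 in the subline, 5.28 and 4.68 in the Detroit parent and 7.02 and 9.23 in the Fadu parent (adjusted p = 0.0697). Of 13 cornified envelope genes, TGM1, the transglutaminase of keratinocytes, rose and TGM2, the tissue transglutaminase, fell. TGM1 was at 7.94 and 6.64 in the subline, 5.41 and 5.27 in the Detroit parent and 5.38 and 5.32 in the Fadu parent, so that the subline stood above both parents. TGM2 was at 5.76 and 5.32 in the subline, 7.38 and 8.05 in the Detroit parent and 5.47 and 5.67 in the Fadu parent, with -2.34, -2.31 and, uncalled, -0.25 on further probe sets. DSG3, a desmosomal cadherin, was at 6.43 and 9.13 in the subline, 4.66 and 4.47 in the Detroit parent and 7.08 and 6.48 in the Fadu parent, as the only called gene of 9 desmosome genes. CLDN7, a claudin, was at 9.08 and 9.02 in the subline, 7.79 and 6.92 in the Detroit parent and 8.60 and 8.89 in the Fadu parent, as the only called gene of 7 tight junction genes. Calls ended without parent array 1 for TGM1 and DSG3 (adjusted p = 0.0989 and 0.115), without parent array 2 for TGM1, TGM2, DSG3 and CLDN7 (adjusted p = 0.106, 0.0543, 0.115 and 0.143) and without subline array 2 for CLDN7 (adjusted p = 0.0695). The 4 Detroit arrays alone called none of the 4 (adjusted p from 0.129 to 0.280). CDH1, E-cadherin, was at 8.35 and 10.46 in the subline, 9.26 and 8.59 in the Detroit parent and 9.34 and 8.89 in the Fadu parent, and was not called (adjusted p = 0.796). Of 12 mesenchymal genes limma called 0, and 3 had an unadjusted p under 0.05.

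Of 12 tested interstitial matrix genes 4 fell and 0 rose, against 1.77% and 1.51% of all genes tested. These 4 were uneven between the Detroit parent arrays. COL5A2, a fibrillar collagen, was at 3.48 and 3.32 in the subline, against 8.30 and 6.83 in the Detroit parent and 3.14 and 3.36 in the Fadu parent (log2 fold change -4.17, SE 0.39, adjusted p = 0.000173). TGFBI, a matrix protein induced by TGF-beta, was at 5.29 and 6.03 in the subline, 11.14 and 9.42 in the Detroit parent and 5.09 and 6.86 in the Fadu parent. FN1, fibronectin, was at 4.41 and 4.62 in the subline, 9.09 and 7.22 in the Detroit parent and 4.79 and 5.61 in the Fadu parent. THBS1, thrombospondin 1, was at 5.69 and 5.30 in the subline, 9.77 and 7.98 in the Detroit parent and 5.58 and 7.02 in the Fadu parent. TGFBI, FN1 and THBS1 fell by 4.62, 3.64 and 3.38 on the log2 scale. All 4 genes were higher on parent array 1 than on array 2. With the 4 Detroit arrays alone FN1 and THBS1 were not called (adjusted p = 0.106 and 0.140). These 4 fell among 12 interstitial matrix genes and 0 rose, with a median log2 fold change of -0.87, and without parent array 1 only 2 were called. FN1 and THBS1 lost their calls then (adjusted p = 0.0865 and 0.214), THBS1 also without subline array 2 (adjusted p = 0.106), and TGFBI with the 4 arrays alone (adjusted p = 0.0758). COL1A2, a collagen on the fibroblast marker list, was at 4.67 and 4.73 in the subline, 8.50 and 5.35 in the Detroit parent and 4.55 and 4.91 in the Fadu parent, and was not called (adjusted p = 0.140). The part of fibroblast-type RNA on parent array 1 in these genes was not tested. DCN, the decorin gene and another fibroblast marker, was at 4.38 and 4.57 in the subline, 4.74 and 4.29 in the Detroit parent and 4.57 and 4.66 in the Fadu parent. Further probe sets of FN1 gave -4.12, -3.32 and -2.76 and, uncalled, -0.47 and -0.03, and those of THBS1 gave -3.83 and, uncalled, -3.17, -2.16 and -0.19.

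The basement membrane and integrin lists gave 1 call each. COL4A1, a basement membrane collagen, was the only called gene of 11 such collagens and laminins, at 5.02 and 4.24 in the subline, 7.83 and 6.12 in the Detroit parent and 5.72 and 5.41 in the Fadu parent. ITGA2, a collagen-binding integrin subunit, was the only called gene of 9 integrins, at 5.15 and 4.89 in the subline, 7.83 and 6.29 in the Detroit parent and 5.35 and 5.40 in the Fadu parent. Without subline array 1, 3 of the 11 collagens and laminins fell, and 0 fell without subline array 2 or parent array 1. COL4A1 and ITGA2 both fell, and both were lower in the Fadu parent than in the Detroit parent too. Neither was called with the 4 Detroit arrays alone (adjusted p = 0.234 and 0.237). Without subline array 2 the adjusted p was 0.130 for COL4A1 and 0.105 for ITGA2, without parent array 1 it was 0.157 and 0.145, and without Fadu invasion subline array 2 it was 0.0502 for each. A further COL4A1 probe set gave -1.34, uncalled. Among 12 membrane serine proteases and inhibitors, PRSS21 rose while TMPRSS4 and PRSS23 fell. PRSS23 was not called with the 4 Detroit arrays alone (adjusted p = 0.157). TMPRSS4, a transmembrane protease, was at 5.58 and 5.61 in the subline, 8.67 and 7.39 in the Detroit parent and 5.75 and 5.71 in the Fadu parent. PRSS23, a secreted protease, was at 7.16 and 7.80 in the subline, 11.19 and 9.80 in the Detroit parent and 8.63 and 9.23 in the Fadu parent, and its call ended without parent array 1 (adjusted p = 0.0785), while TMPRSS4 was not called with the 4 arrays alone (adjusted p = 0.169).

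Chemokine and cell death genes gave decreases and no increase. CXCL6 and CXCL3, chemokines that bind the receptor CXCR2, fell with CXCL1 among 15 chemokines and interleukins, of which 4 fell and 0 rose, or 2 without parent array 1. CXCL6 was at 2.89 and 3.12 in the subline, 7.05 and 6.52 in the Detroit parent and 2.98 and 2.93 in the Fadu parent (log2 fold change -3.78, SE 0.24, adjusted p = 1.97e-05). CXCL3 was at 4.17 and 4.13 in the subline, 8.35 and 6.82 in the Detroit parent and 4.33 and 4.49 in the Fadu parent, and was not called with the 4 arrays alone (adjusted p = 0.0810). CASP1, the caspase of inflammasomes, was at 5.68 and 6.44 in the subline, 9.71 and 8.78 in the Detroit parent and 7.40 and 7.07 in the Fadu parent (log2 fold change -3.18, adjusted p = 0.00385). Its further probe sets gave -3.43, -3.56, -3.56 and, uncalled, -1.18. BID, a trigger of mitochondrial apoptosis, was at 7.84 and 7.01 in the subline, 9.56 and 9.91 in the Detroit parent and 7.72 and 7.46 in the Fadu parent. BIRC2, an inhibitor of apoptosis, was at 6.78 and 7.92 in the subline, 10.18 and 9.75 in the Detroit parent and 7.69 and 8.0 in the Fadu parent. With the 4 Detroit arrays alone CASP1, BID and BIRC2 were not called (adjusted p = 0.102, 0.172 and 0.170). Of 16 death receptor and apoptosis genes 5 fell and 0 rose, with a median of -0.65, or 2 without parent array 1 and 3 without array 2. BIRC2 missed the threshold in the first of these fits (adjusted p = 0.0549) and BID in the second (adjusted p = 0.0586).

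Interferon stimulated genes differed between the subline arrays as well as between groups. ISG15, a ubiquitin-like interferon product, was at 10.98 and 9.47 in the subline, 7.26 and 7.83 in the Detroit parent and 11.39 and 9.91 in the Fadu parent. ISG20, an antiviral exonuclease, was at 7.0 and 6.83 in the subline, 4.97 and 5.11 in the Detroit parent and 6.94 and 5.66 in the Fadu parent. With IFI27 they were the 3 called genes of 32, with 0 lower, and none was called without parent array 1 or without array 2. For ISG15 the adjusted p was 0.178 and 0.0759 in those fits and 0.0608 without subline array 1, with 0.0558 and 0.0560 without each Fadu invasion array, and for ISG20 it was 0.146, 0.0943 and, without subline array 2, 0.0630. A further ISG20 probe set gave 1.85, uncalled. The list's median difference from the Detroit parent mean was 0.59 on subline array 1 and -0.26 on array 2, and the Fadu parent mean stood at 1.06. On array 2, 11 of the 32 genes were lower than on array 1 by over 1 and 0 were higher. For all genes tested these shares were 8.32% and 10.9%. The Fadu parent arrays also differed on this list, with 18 of 32 lower on array 2.

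Enzymes of steroid and aldehyde metabolism and genes of glandular epithelium gave decreases. For comparison, 1.77% of all genes tested fell and 1.51% rose, with a median log2 fold change of -0.01. AKR1C3, an aldo-keto reductase of steroids and prostaglandins, was at 3.30 and 3.81 in the subline, against 7.87 and 7.29 in the Detroit parent and 3.33 and 3.79 in the Fadu parent (log2 fold change -4.03, SE 0.32, adjusted p = 9.74e-05). AKR1B10, a reductase of aldehydes and retinal, was at 3.96 and 4.11 in the subline, 6.84 and 6.01 in the Detroit parent and 4.50 and 4.56 in the Fadu parent. Of 6 aldo-keto reductases these 2 fell, with a median of -2.75, and probe sets of the near-identical AKR1C genes can share signal. AKR1C2 was at 5.40 and 8.83 in the subline and 10.83 and 9.98 in the Detroit parent, with 6.86 and 6.81 in the Fadu parent, and was not called (adjusted p = 0.0677), although another of its probe sets was, at -3.41 (adjusted p = 0.0325). Without subline array 2, 4 of the reductases fell. PLA2G4A, the phospholipase that releases arachidonic acid, was at 3.43 and 2.83 in the subline, 5.86 and 6.59 in the Detroit parent and 3.05 and 3.46 in the Fadu parent (log2 fold change -3.10, adjusted p = 0.00153). AGR2, a disulphide isomerase of mucus-making cells, was at 3.80 and 4.28 in the subline, against 8.10 and 7.97 in the Detroit parent and 5.69 and 4.27 in the Fadu parent (log2 fold change -3.99, SE 0.40, adjusted p = 0.000285). CEACAM6, a surface adhesion protein, was at 4.57 and 4.58 in the subline, 8.52 and 7.08 in the Detroit parent and 4.46 and 4.45 in the Fadu parent, with a log2 fold change of -3.23. PSCA, another surface protein, was at 3.73 and 3.47 in the subline, 8.05 and 6.0 in the Detroit parent and 3.62 and 3.77 in the Fadu parent, with a log2 fold change of -3.42. Of 16 glandular genes AGR2, CEACAM6 and PSCA fell and 0 rose, with a median of -1.54, and 6 fell without subline array 2 and 5 without parent array 2. With the 4 arrays alone AKR1B10, CEACAM6 and PSCA were not called (adjusted p = 0.0724, 0.0897 and 0.132).

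GPX2, ALDH3A1 and GSR fell among 22 targets of the oxidative stress factor NRF2 other than the aldo-keto reductases, against 1.77% of all genes tested. GPX2, a glutathione peroxidase of epithelia, was at 6.02 and 6.0 in the subline, 7.92 and 8.19 in the Detroit parent and 8.04 and 8.86 in the Fadu parent, so that here the Fadu parent lay with the Detroit parent. ALDH3A1, an aldehyde dehydrogenase, was at 7.22 and 6.72 in the subline, 9.17 and 8.72 in the Detroit parent and 8.12 and 7.70 in the Fadu parent. GSR, glutathione reductase, was at 5.79 and 5.88 in the subline, 7.61 and 7.33 in the Detroit parent and 5.47 and 6.17 in the Fadu parent. No gene of the list rose, but 6 did without subline array 1. The median of the 22 genes was -0.64 on subline array 1 and 0.03 on array 2. Without parent array 1 a single gene of the list was called, with an adjusted p of 0.0904 for ALDH3A1 and 0.0954 for GSR, and ALDH3A1 also missed the threshold without subline array 2 (adjusted p = 0.0582). None of the 3 was called with the 4 arrays alone (adjusted p from 0.124 to 0.189).

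Some genes of the signalling and lineage lists were called. YAP1, the coactivator of the Hippo pathway, was at 5.16 and 5.85 in the subline, against 9.06 and 8.40 in the Detroit parent and 6.24 and 7.09 in the Fadu parent (log2 fold change -3.23, SE 0.41, adjusted p = 0.00185). ID3, an inhibitor of bHLH factors, was at 5.30 and 5.08 in the subline, 7.58 and 9.53 in the Detroit parent and 5.04 and 4.89 in the Fadu parent (log2 fold change -3.36, adjusted p = 0.00701). CD24, a surface glycoprotein, was at 5.55 and 5.80 in the subline, 9.57 and 8.28 in the Detroit parent and 5.63 and 5.65 in the Fadu parent (log2 fold change -3.25, adjusted p = 0.000877). These 3 were not called with the 4 arrays alone (adjusted p = 0.0725, 0.147 and 0.102). Further CD24 probe sets gave -3.86, -4.18, -4.29, -5.28 and -5.35, all called. On those at -4.29, -5.28 and -5.35 the subline arrays differed, with gaps of 1.21, 1.67 and 1.66 against 0.25 here. IRX4, a homeobox factor, and SOX9, a transcription factor of epithelial progenitors, rose among 17 lineage and stem genes, of which 2 fell. IRX4 was at 5.87 and 5.92 in the subline, 3.89 and 4.04 in the Detroit parent and 5.62 and 5.18 in the Fadu parent, and SOX9 was at 6.20 and 6.43 in the subline, 4.66 and 4.85 in the Detroit parent and 5.97 and 6.26 in the Fadu parent. Both calls ended without subline array 2 (adjusted p = 0.0591 and 0.112), without parent array 1 (adjusted p = 0.112 and 0.171) and without array 2 (adjusted p = 0.0690 and 0.0969), and a further SOX9 probe set gave 1.77, uncalled. NRG1, a ligand of the receptor ERBB3, was at 4.19 and 4.30 in the subline, 6.67 and 8.67 in the Detroit parent and 5.09 and 6.0 in the Fadu parent, with a log2 fold change of -3.43. Its call ended without parent array 2 (adjusted p = 0.0538), and its further probe sets gave -0.36, -0.05, -0.01, 0.01 and 0.25. Among 21 feedback genes of the ERK pathway DUSP1 alone was called, while DUSP6 and DUSP5 were at 5.63 and 6.16 and at 6.43 and 7.47 in the subline, against 4.46 and 3.93 and 5.32 and 5.46 in the Detroit parent and 6.26 and 6.15 and 6.92 and 6.15 in the Fadu parent (adjusted p = 0.0662 and 0.105). In that list 6 genes rose without subline array 1, and none did without subline array 2 or parent array 2. A further DUSP1 probe set gave 0.80, uncalled.

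Genes of chromosome band 11q13, which is often amplified in head and neck carcinoma, gave 2 increases and 0 decreases among 9. Besides SHANK2 this was PPFIA1, a scaffold protein of focal adhesions, at 9.01 and 10.04 in the subline, 7.63 and 7.10 in the Detroit parent and 9.56 and 9.65 in the Fadu parent (log2 fold change 2.16, adjusted p = 0.0131). Its call ended without subline array 2 or parent array 2 (adjusted p = 0.0556 and 0.0759), and its further probe sets gave 1.17, 1.24 and 1.65, all uncalled. Of 7 genes on the cancer-testis list MAGED1 rose besides MAGEA4, but MAGED1 is a MAGE family gene not limited to germ cells. MAGED1 was at 7.36 and 8.19 in the subline, 6.08 and 6.05 in the Detroit parent and 7.25 and 6.80 in the Fadu parent. It was called only with all of subline array 2 and both Detroit parent arrays present (adjusted p = 0.0920, 0.0989 and 0.0876 without each).

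**Figure D3:**
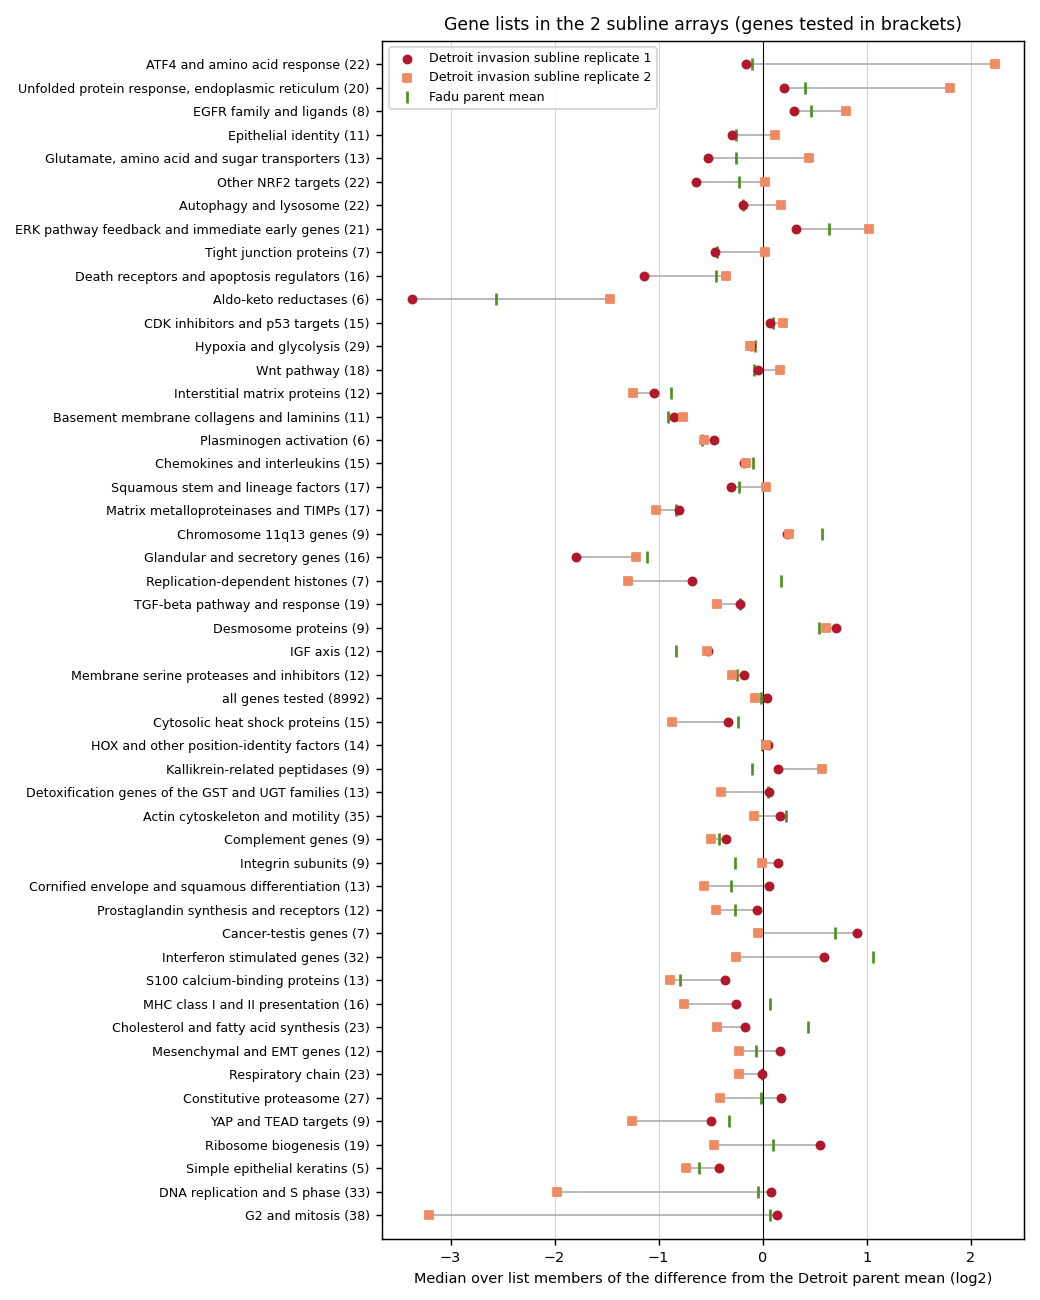
For each gene list with at least 5 tested genes, the median difference from the Detroit parent mean in log2 units on subline array 1 (circles), subline array 2 (squares) and in the Fadu parent mean (ticks), ordered by the gap between the subline arrays. The unfolded protein and ATF4 lists lie at 1.80 and 2.24 on array 2 against 0.20 and -0.16 on array 1. The mitosis list lies at -3.21 on array 2 against 0.14 on array 1, while the metalloproteinase list lies at -0.81 on array 1 and -1.02 on array 2.

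The 2 subline arrays differed by over 1 on 1732 genes, 19.3% of those tested, against 807 (8.97%) for the Detroit parent arrays and 236 to 1351 for the other 4 groups. Array 2 was the higher array on 984 of them (10.9%) and the lower on 748 (8.32%). Where array 2 was higher, array 1 lay within 1 of the Detroit parent mean for 74.4% and of the Fadu parent mean for 80.3%, and array 2 for 35.8% and 54.2%. Where array 2 was lower, these shares were 77.3% and 93.9% for array 1 and 44.0% and 44.3% for array 2. Array 2 was therefore the array that more often stood away from both parents on these genes. For ACTB the 3-prime control probe set minus the 5-prime one, a measure of RNA integrity and labelling, was -0.28 on array 1 and 0.80 on array 2, against -0.03 and -0.10 in the Detroit parent and -0.23 to 0.87 on the other 8 arrays, the highest being OECM1 parent array 1. The part of RNA quality in the differing genes was not tested.

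Where array 2 was higher, the genes with the widest gaps included stress-induced ones. GDF15, a stress-induced cytokine, was at 3.79 and 10.12 in the subline, against 8.52 and 7.01 in the Detroit parent and 7.52 on both Fadu parent arrays. HMOX1, haem oxygenase 1, was at 5.12 and 10.69 in the subline, 5.23 and 4.66 in the Detroit parent and 4.94 and 5.21 in the Fadu parent. SLC7A11, the cystine transporter, was at 5.28 and 9.89 in the subline, 8.32 and 6.53 in the Detroit parent and 6.96 and 7.55 in the Fadu parent. HMOX1 was thus high on 1 array of the 6, whereas GDF15 and SLC7A11 were low on array 1 and high on array 2 with both parents between them. VEGFA, the vascular growth factor, was at 4.87 and 9.56 in the subline and 8.87 and 6.13 in the Detroit parent, with 8.70 and 8.42 in the Fadu parent and gaps of 1.32 to 2.11 on its further probe sets against 4.68 here. LCN2, a siderophore-binding lipocalin, was at 5.40 and 10.79 in the subline, 12.62 and 11.30 in the Detroit parent and 10.63 and 7.75 in the Fadu parent. LAMP3, ARG2 and CYP1A1, a lysosomal membrane protein, an arginase and a cytochrome P450, were at 4.34, 3.75 and 4.32 on array 1 and at 9.90, 8.85 and 9.21 on array 2, against 4.52 to 7.53 on the Detroit parent arrays and 4.26 to 7.03 on the Fadu parent arrays. A further ARG2 probe set gave a gap of 0.38 against 5.11 here, and a dim one of GDF15 gave -0.52 against 6.33. Those of SLC7A11 gave 3.25 and 5.94 against 4.61. None of these 8 genes was called against the Detroit parent (adjusted p from 0.214 to 0.981).

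Among the 8 genes lowest on array 2 relative to array 1, most belong to the cell cycle. CDC20, an activator of the anaphase-promoting complex, was at 10.21 and 5.22 in the subline, against 8.97 and 9.23 in the Detroit parent and 9.47 and 9.98 in the Fadu parent. RRM2, a subunit of ribonucleotide reductase, was at 9.20 and 4.21 in the subline, 9.11 and 9.15 in the Detroit parent and 9.30 and 9.31 in the Fadu parent. CCNB1, cyclin B1, was at 9.53 and 5.35 in the subline, 8.94 and 9.40 in the Detroit parent and 9.35 and 9.48 in the Fadu parent. In all 3 genes array 2 lay below all 4 parent arrays. On array 1 CDC20 and CCNB1 lay above these arrays and RRM2 within their range. CCNA2, BIRC5 and DLGAP5, a cyclin, survivin and a spindle protein, were at 8.30, 9.21 and 8.31 on array 1 and at 3.68, 5.0 and 4.15 on array 2, against 7.41 to 9.53 on the Detroit parent arrays and 7.57 to 9.36 on the Fadu parent arrays. KRT13, a keratin of upper squamous layers, was at 8.66 and 4.03 in the subline but also at 3.92 and 8.01 in the Detroit parent, with 7.98 and 6.34 in the Fadu parent. GAL, a neuropeptide, was at 9.36 and 4.36 in the subline, 5.99 and 8.93 in the Detroit parent and 8.18 and 9.35 in the Fadu parent. For KRT13 and GAL the Detroit parent arrays also lay far apart, in the other direction. Further probe sets gave gaps of -3.74 for RRM2, -2.12 for CCNA2, -2.79 and -3.48 for BIRC5 and, dim, -0.23 for GAL.

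The same division appeared across whole lists. Of 38 genes of G2 and mitosis, 36 were lower on subline array 2 than on array 1 by over 1 and 0 were higher, and of 33 genes of DNA replication and S phase 28 were lower and 0 higher. Over all genes, 8.32% were lower by over 1. The mean level of the mitosis list was 7.80 and 4.85 on the subline arrays, against 7.46 and 7.96 in the Detroit parent, and that of the S phase list was 7.56 and 5.52 against 7.21 and 7.85. In the other 5 groups no more than 7 mitosis genes differed by over 1 in a direction between duplicates, and no more than 14 S phase genes. Limma called 0 genes of either list against the Detroit parent, with 12 and 9 at an unadjusted p under 0.05. Without subline array 1, the median log2 fold change was -3.21 for the mitosis list and -1.98 for the S phase list. Without subline array 2 the medians were 0.14 and 0.08. Of proteasome and ribosome biogenesis genes, 11 of 27 and 9 of 19 were lower on array 2 by over 1 and 0 higher.

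Stress genes of the endoplasmic reticulum and of amino acid supply ran the other way. Of 20 unfolded protein response genes, 14 were higher on array 2 by over 1 and 0 lower, and of 22 genes of ATF4 and the amino acid response 20 were higher and 0 lower, against 10.9% of all genes. The mean level of the unfolded protein list was 8.06 and 9.46 in the subline against 7.78 and 7.52 in the Detroit parent, and that of the ATF4 list was 7.31 and 9.55 against 7.49 and 7.48. OECM1 duplicates also differed here, with 9 unfolded protein genes in its invasion subline and 10 ATF4 genes in its parent apart by over 1. CRELD2, a secreted stress protein of the endoplasmic reticulum, was the only called unfolded protein gene. It was at 9.99 and 11.36 in the subline, 7.92 and 7.84 in the Detroit parent and 9.89 and 9.95 in the Fadu parent (log2 fold change 2.80, SE 0.43, adjusted p = 0.00525), with an adjusted p of 0.161 from the 4 arrays alone. Of 22 tested genes of the ATF4 list 2 rose and 0 fell. PSPH, the phosphatase of serine synthesis, was at 7.11 and 8.24 in the subline, 3.84 and 5.68 in the Detroit parent and 7.56 and 7.05 in the Fadu parent. Leaving out subline array 2 or parent array 1 ended the PSPH call (adjusted p = 0.0699 and 0.0875), and a further probe set gave 0.64, uncalled. WARS1, a tryptophan tRNA synthetase, was at 9.78 and 10.69 in the subline, 8.83 and 8.08 in the Detroit parent and 9.26 and 8.64 in the Fadu parent (log2 fold change 1.78, adjusted p = 0.0483). Leaving out any array but subline array 1 ended the WARS1 call (adjusted p from 0.0527 to 0.219), and a further probe set gave 1.39, uncalled. Without subline array 1, the median log2 fold change was 1.80 for the unfolded protein list and 2.24 for the ATF4 list. Without subline array 2 the medians were 0.20 and -0.16, and without parent array 1 they were 1.33 and 1.15.

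Named genes of these pathways, picked after their values were seen, show the size of the gap. HSPA5, the main chaperone of the endoplasmic reticulum, was at 10.38 and 12.42 in the subline and 10.85 and 10.42 in the Detroit parent, with 10.18 and 10.39 in the Fadu parent. DNAJB9, its co-chaperone, was at 4.23 and 8.50 in the subline and 4.81 and 4.62 in the Detroit parent, with 5.76 and 4.73 in the Fadu parent. ASNS, asparagine synthetase, was at 8.20 and 11.60 in the subline and 8.78 and 9.38 in the Detroit parent, with 8.54 and 8.13 in the Fadu parent. In all 3 genes array 2 alone stood above the Detroit parent. DDIT3 and TRIB3, effectors of the stress response, were at 6.22 and 6.96 on subline array 1, at 9.76 and 10.53 on array 2, and between 6.65 and 7.36 on the Detroit parent arrays and 6.41 and 7.57 on the Fadu parent arrays.

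**Figure D4:**
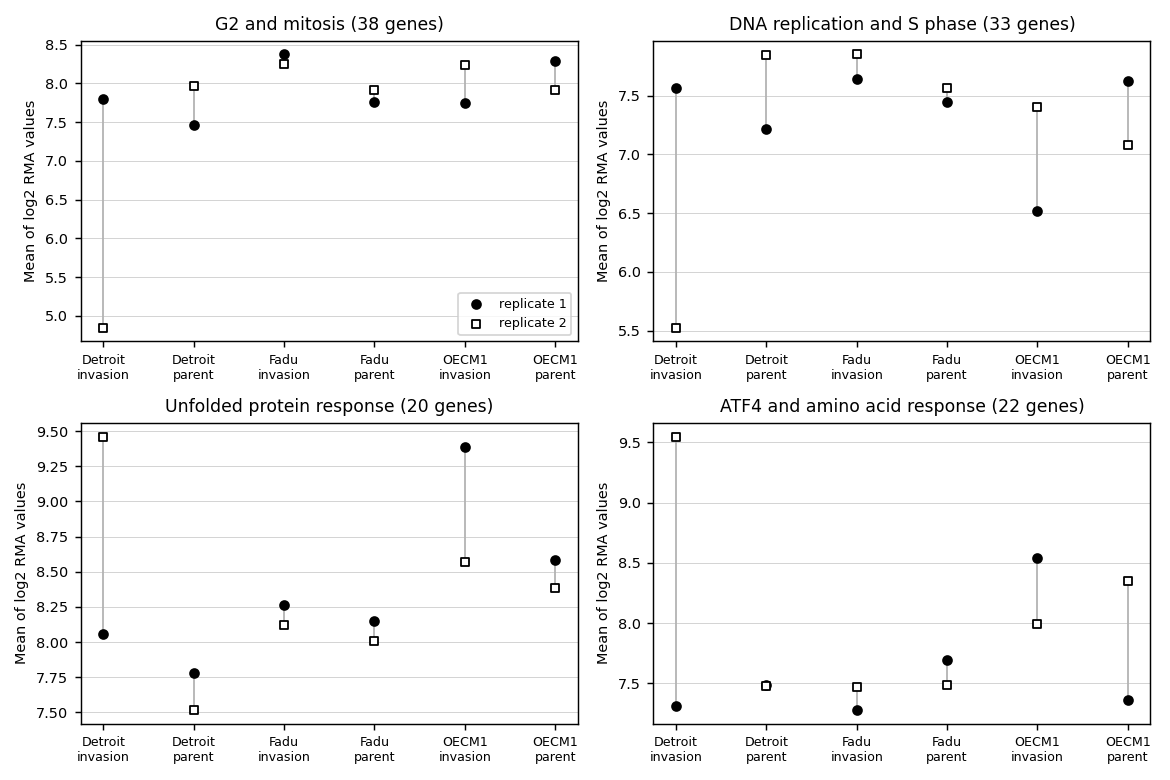
Mean log2 RMA value of 4 gene lists on each of the 12 arrays, with filled circles for array 1 and open squares for array 2 of each group (replicates 1 and 2 in the legend). The Detroit invasion subline has the widest gap in each panel, with the mitosis list at 7.80 and 4.85 and the ATF4 list at 7.31 and 9.55. The vertical axes do not start at 0.

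Promoter sequences of 4 of these genes are shown because published response elements of the pathways lie in them. Sequences are from RefSeq, build GRCh38.p14, and cover the 250 bases before the annotated start, 5′ to 3′ on the strand of the gene, with element matches in capitals. The endoplasmic reticulum stress element was searched as CCAAT, any 9 bases and CCACG, the amino acid response element as TGATGNAA and the cell cycle homology region as TTTGAA, each on both strands. HSPA5 lies at chr9:125241344-125241593 on the minus strand, CRELD2 at chr22:49918384-49918633 on the plus strand, ASNS at chr7:97872409-97872658 on the minus strand and CDC20 at chr1:43358731-43358980 on the plus strand.
HSPA5: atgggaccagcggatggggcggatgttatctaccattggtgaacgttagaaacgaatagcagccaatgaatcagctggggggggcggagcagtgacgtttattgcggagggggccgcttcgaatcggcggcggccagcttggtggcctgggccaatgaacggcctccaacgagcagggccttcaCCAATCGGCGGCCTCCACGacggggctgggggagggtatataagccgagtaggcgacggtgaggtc
CRELD2: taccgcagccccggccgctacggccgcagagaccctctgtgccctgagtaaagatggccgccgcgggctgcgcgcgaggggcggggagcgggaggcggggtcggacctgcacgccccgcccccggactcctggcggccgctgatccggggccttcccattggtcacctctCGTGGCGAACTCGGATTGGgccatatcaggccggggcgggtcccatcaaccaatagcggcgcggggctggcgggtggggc
ASNS: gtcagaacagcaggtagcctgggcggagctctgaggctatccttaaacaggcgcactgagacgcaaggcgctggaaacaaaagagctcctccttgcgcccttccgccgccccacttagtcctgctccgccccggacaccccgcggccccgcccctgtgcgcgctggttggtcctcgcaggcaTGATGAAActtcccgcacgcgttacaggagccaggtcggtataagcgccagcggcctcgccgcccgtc
CDC20: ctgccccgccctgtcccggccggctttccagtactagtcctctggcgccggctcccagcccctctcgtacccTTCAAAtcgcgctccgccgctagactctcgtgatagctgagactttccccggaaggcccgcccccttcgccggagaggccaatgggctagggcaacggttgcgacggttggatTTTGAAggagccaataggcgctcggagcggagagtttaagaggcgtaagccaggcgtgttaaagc
The stress element began 66 bases before the start in HSPA5 and, in the opposite orientation, 80 bases before it in CRELD2. The amino acid element began 68 bases before the start in ASNS, and CDC20 held 2 matches of the cell cycle letters.

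Matches of the stress element were found in 26 of 35116 RefSeq promoters of the same length, or 0.074%, and in 6 of the 19 tested unfolded protein genes with a promoter in the table, namely CANX, HSPA5, HSP90B1, CALR, XBP1 and CRELD2. The amino acid element was found in 1104 promoters, or 3.14%, and in 4 of 18 genes of the ATF4 list, namely ATF3, ASNS, CHAC1 and AARS1. The cell cycle letters were found in 4677 promoters, or 13.3%, and in 16 of 31 mitosis genes. The lists and the elements come from the same published pathways, so higher shares in the lists are no result of these arrays. List genes were counted once per symbol, but the 35116 promoters once per entry. A match describes these letters only, and nothing was measured here about binding.

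The Detroit comparison was also set against the same comparison in the other lines, as the Detroit effect minus the mean of the Fadu and OECM1 effects. Limma called 117 of 8992 genes (1.3%), with 34 more positive in Detroit (0.378%) and 83 more negative (0.923%), and 1031 had an unadjusted p under 0.05. Calls numbered 513 without Detroit subline array 1, 57 without parent array 1, and 52 to 70 without either Fadu invasion, Fadu parent or OECM1 invasion array. Of the agreeing Detroit calls, 26 of 108 increases and 77 of 137 decreases were also called here, and of the differing ones 8 of 28 and 6 of 22. KRT14 had effects of 6.47 in Detroit, -0.02 in Fadu and -0.47 in OECM1, and S100A8 had -7.59 in Detroit and -0.87 in Fadu. In the Fadu and OECM1 parents S100A8 averaged 4.54 and 3.44, and MMP7 averaged 4.26 and 4.44. These levels are near or under the dim limit, so little fall could be measured there for these genes. MALL and PLAT were above that limit, at 5.82 and 5.27 in the Fadu parent and 7.45 and 6.45 in the OECM1 parent. KLK5 and KLK10 had effects of 4.80 and 3.52 in Detroit and of -1.86 and -2.25 in Fadu. CST6, a cysteine protease inhibitor, was at 5.21 and 4.47 in the Detroit subline, 9.75 and 8.62 in the Detroit parent and 5.46 and 5.89 in the Fadu parent, with effects of -4.34 in Detroit and 1.33 in Fadu. EFEMP1, a fibulin, was at 6.70 and 7.06 in the Detroit subline, 11.80 and 10.42 in the Detroit parent and 8.31 and 8.84 in the Fadu parent. Its Detroit call ended without parent array 1 (adjusted p = 0.0959) and with the 4 arrays alone (adjusted p = 0.0687), and a further probe set gave -3.09, uncalled.

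**Figure D5:**
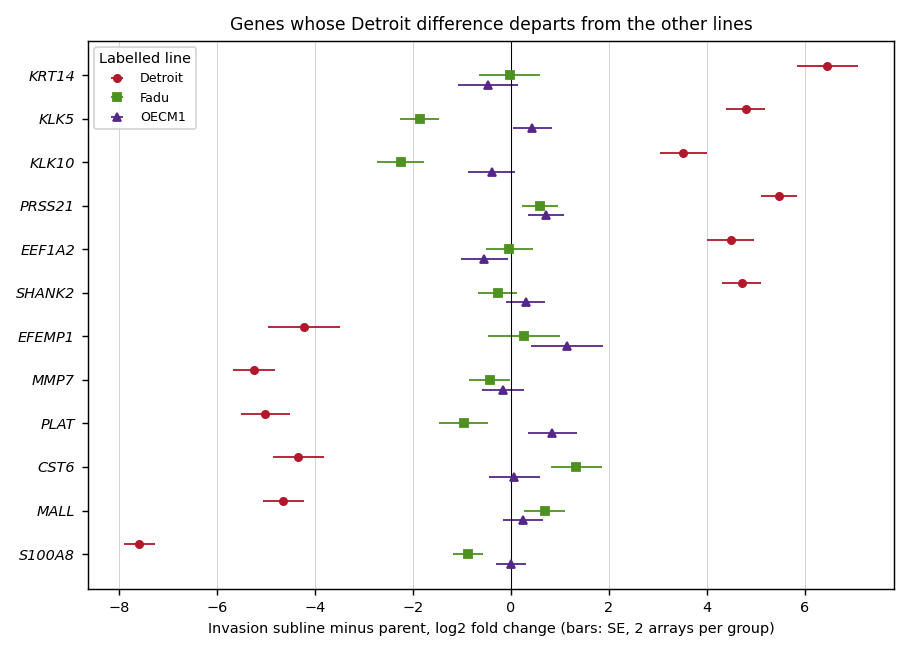
Log2 fold change of invasion subline over parent in each labelled line, with bars of 1 SE, for the 6 genes most positive and the 6 most negative in Detroit relative to the mean of the other lines. Detroit effects run from 3.52 to 6.47 and from -4.23 to -7.59, while effects in Fadu and OECM1 lie between -2.25 and 1.33.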

How the data were processed

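Total RNA of 12 samples was measured on 1 Affymetrix array each, and groups were taken from the sample titles. The deposited values were log2 expression values of 22283 probe sets, made by the authors with RMA, and Partek 7 was also named, per the submitters' processing notes. Genome build and annotation are not given in the sources used here, there are no detection calls, and 0 columns of values were left unused.

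Gene names came from the platform annotation, in which 19065 probe sets had 1 gene symbol, 1043 several and 2107 none, and 68 were controls. A gene was represented by its probe set with the highest mean, and 8992 of 11963 genes with at least 2 arrays above the 40th percentile were tested. The model, in limma 3.58.1 (R 4.3.3), had a mean per group over all 12 arrays, moderated variances and a variance trend with intensity, so that the 6 groups shared 1 estimate of the spread. Duplicates differed by over 1 on 19.3% of genes in the Detroit subline and 8.97% in the Detroit parent. In the other groups they did so on 2.62% to 15.0%. The shared spread may thus be too small for the Detroit contrast. Contrasts were Detroit subline over parent, that effect minus the mean effect in Fadu and OECM1, and Detroit subline minus Fadu parent. P-values were adjusted over all genes tested.

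The comparison and the 54 gene lists were chosen with earlier results of these data known. Named genes were the 12 largest agreeing changes and 6 largest differing changes per direction, the 8 widest gaps per direction between the subline arrays, up to 4 called genes per list by p (filled to 3), the 6 largest departures per direction from the other lines, and all cell type markers. HSPA5, ASNS, DNAJB9, DDIT3 and TRIB3 were added after their values were seen. Results of some genes picked by the naming rule are not reported here.

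Alternatives changed the low-value filter, the intensity trend, array weights, the normalization, the arrays fitted, the threshold, the agreement limit and the probe set, and left out each array. On simulated data with 200 changed genes among 8992 in each of 10 runs, the Detroit contrast recovered 18% of changes of 1 on the log2 scale, 68.4% of 2, 89% of 3 and 96.8% of 4, and 4.63% of its calls were false. The simulation drew independent noise with 1 spread per gene for all groups. In the data the root mean square difference between duplicates was 0.89 in the Detroit subline and 0.58 in the Detroit parent. It was 0.42 to 0.75 in the other groups. The simulated rates therefore need not hold for the Detroit comparison. Promoters came from a RefSeq table (GRCh38.p14) by gene symbol.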

Additional observations from a re-analysis of the deposited data

Results flagged for a closer look

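For 12 genes the Detroit difference departed from the mean of the Fadu and OECM1 differences in a limma test of that departure. The departures, on the log2 scale, were 6.71 for KRT14 (adjusted p = 0.00132), 5.51 for KLK5 (adjusted p = 0.000434), 4.84 for KLK10 (adjusted p = 0.00208), 4.82 for PRSS21 (adjusted p = 0.000523), 4.78 for EEF1A2 (adjusted p = 0.00219) and 4.70 for SHANK2 (adjusted p = 0.000867). In the negative direction they were -7.15 for S100A8 (adjusted p = 9.94e-06), -5.12 for MALL (adjusted p = 0.000633), -5.04 for CST6 (adjusted p = 0.00237), -4.96 for PLAT (adjusted p = 0.00219), -4.95 for MMP7 (adjusted p = 0.000867) and -4.93 for EFEMP1 (adjusted p = 0.0256). All 12 are Detroit calls as well. For S100A8 and MMP7 the Fadu and OECM1 parents were near or under the dim limit, so little fall could be measured there. In the alternatives run, EFEMP1 alone lost this call, without parent array 1 (adjusted p = 0.126), without either Fadu invasion array (0.0573 and 0.0728), either Fadu parent array (0.0602 and 0.0524) or either OECM1 invasion array (0.0573 and 0.0727), and with a replicate block (0.0706). The genes were picked as the largest departures, so their sizes are not typical of the 117 genes called.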

How the results depend on the processing

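The 295 Detroit calls became 170 with array weights, 47 with the 4 Detroit arrays alone and 101 at an adjusted p under 0.01. Leaving out 1 array at a time gave 128 to 918 Detroit calls, 52 to 513 departures from the other lines against 117, 0 to 246 calls against the Fadu parent against 0, and 48 to 192 called list genes against 77. With the replicate block within each line there were 118 Detroit calls, 117 of them shared with the 295, and 46 departures. The labels give only a number for each replicate, and same-numbered Detroit arrays did not deviate together (correlation -0.19), so no pairing was taken. Genes on which the subline arrays differed numbered 1732, and 4104 or 760 at a limit of 0.5 or 1.5, and agreeing calls numbered 155 at 0.5 against 245. Dim probe sets reversed the sign of SHANK2 (-0.17) and NRG1 (0.012), and another NRG1 probe set gave 0.25. Of 92 called genes picked by the naming rule, 27 kept their call in every setting and none reversed between settings on the same probe set, while 60 lost it with the 4 arrays alone, 40 without parent array 1, 29 without parent array 2, 22 without subline array 2 and 3 without subline array 1. The cause of these changes was not tested. Smaller fits hold fewer arrays, and the fit to the 4 Detroit arrays takes its spread from those arrays alone. A fit without 1 array has n = 1 in that group. Signals near background limit dim genes.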
